A study of Mus musculus with 8 samples.

Results

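The class II and class IV histone deacetylases were 7 genes: the 4 class IIa genes Hdac4, Hdac5, Hdac7 and Hdac9, the 2 class IIb genes Hdac6 and Hdac10, and the class IV gene Hdac11. They were taken by gene symbol from 54532 genes listed for the first experiment and 28229 for the second, and all 7 had enough reads to be tested in both. RNA-seq had been performed on 8 libraries of brain from male C57BL/6 mice on Day 21. In the first experiment, 2 libraries came from damaged cortex of mice with photothrombotic stroke plus restraint stress (PTS + RS), and 2 from cortex of mice with restraint stress alone (RS). In the second experiment all mice carried the stroke and the restraint stress. Here 2 libraries came from mice given the HDAC3 inhibitor RGFP109 (60 mg/kg, subcutaneously, daily) and 2 from mice labelled NaCl. The study describes RGFP109 as acting on class I enzymes, with selectivity for both HDAC1 and HDAC3. The drug was dissolved in DMSO and cyclodextrin, and the study calls its controls vehicle mice, while the labels name NaCl. In both groups replicate 1 is labelled cortex and replicate 2 amygdala. The methods say that samples were pooled and barcoded, which leaves unclear whether a library holds 1 mouse or a pool. The p-values therefore measure the spread between libraries, which may be technical. In the second experiment the 2 libraries of a treatment group also differ in tissue label, and their spread includes that difference. Mice of all 4 groups had restraint stress.

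Histone deacetylases remove acetyl groups from lysines, and the zinc-dependent enzymes fall into classes by sequence. Class IIa enzymes have little deacetylase activity of their own. They shuttle between nucleus and cytoplasm, are held in the cytoplasm by 14-3-3 proteins after phosphorylation by calcium-dependent and salt-inducible kinases, and in the nucleus repress MEF2 transcription factors and bind the NCoR and SMRT complex that holds the class I enzyme HDAC3. HDAC6 deacetylates tubulin in the cytoplasm, HDAC10 acts on polyamines, and HDAC11 removes fatty acyl groups and is abundant in brain.

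The 3 genes with the lowest unadjusted p in the first comparison, Hdac11, Hdac5 and Hdac9, are shown with the sequence at their starts, so that the members the results turn on can be compared. Each window runs from 250 bases before to 50 bases after a RefSeq start on GRCm38.p6, 5′ to 3′ on the gene's strand. Capitals mark a GC box (GGGCGG), a CRE core (TGACG) or a MEF2-type match (CTA, any 4 bases, TAG), each searched on both strands, and no marked matches overlap in these windows. The windows are chr6:91156565-91156864 (+) for Hdac11, chr11:102230123-102230422 (-) for Hdac5, and chr12:34917046-34917345 (-) and chr12:34528840-34529139 (-) for the 2 starts of Hdac9.
Hdac11: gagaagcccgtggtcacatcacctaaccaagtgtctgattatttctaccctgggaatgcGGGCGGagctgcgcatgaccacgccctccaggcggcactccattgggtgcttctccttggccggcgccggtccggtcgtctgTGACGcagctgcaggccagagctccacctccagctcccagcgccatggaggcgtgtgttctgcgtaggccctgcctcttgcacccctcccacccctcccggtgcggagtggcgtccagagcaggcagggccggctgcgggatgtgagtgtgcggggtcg
Hdac5: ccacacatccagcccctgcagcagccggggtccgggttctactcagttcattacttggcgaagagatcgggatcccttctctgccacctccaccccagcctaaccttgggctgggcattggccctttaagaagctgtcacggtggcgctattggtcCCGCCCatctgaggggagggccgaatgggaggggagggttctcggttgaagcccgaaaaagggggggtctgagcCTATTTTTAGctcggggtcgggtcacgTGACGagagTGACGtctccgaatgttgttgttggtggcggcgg
Hdac9, first start: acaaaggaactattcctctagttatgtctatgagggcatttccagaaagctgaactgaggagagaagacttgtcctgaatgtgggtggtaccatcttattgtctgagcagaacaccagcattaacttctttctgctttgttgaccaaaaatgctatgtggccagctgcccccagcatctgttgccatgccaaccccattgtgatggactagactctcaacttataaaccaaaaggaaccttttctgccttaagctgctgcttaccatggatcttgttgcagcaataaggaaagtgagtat
Hdac9, second start: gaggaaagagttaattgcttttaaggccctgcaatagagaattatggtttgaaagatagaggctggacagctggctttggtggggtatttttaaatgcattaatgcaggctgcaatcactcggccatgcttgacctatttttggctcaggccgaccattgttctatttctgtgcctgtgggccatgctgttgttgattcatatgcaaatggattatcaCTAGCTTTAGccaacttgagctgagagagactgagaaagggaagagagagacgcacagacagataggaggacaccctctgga

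Of 32851 promoter windows of this length, 35.7% held a GC box, 20.8% a CRE core and 3.69% a MEF2-type match. The CTA and TAG ends of the MEF2-type pattern were in the Hdac5 window and in the window of the second Hdac9 start. Between them stood TTTT in Hdac5 and GCTT in Hdac9, so only in Hdac5 was the middle all A or T. The share of 3.69% counts any letters in the middle. The Hdac11 window held 22 CpG dinucleotides and the Hdac5 window 18, against 0 and 3 in the Hdac9 windows and a median of 7 over all windows. The first Hdac9 start lies at the 5′ end of the 869516-bp gene and the second inside it. Windows of 6 of the 7 members were found in the table. Among those not shown, CpG counts were 32 for Hdac4, 20 for Hdac6 and 5 to 35 for the windows of Hdac7. Hdac4 held 5 GC boxes and 3 CRE cores, Hdac6 held 5 GC boxes, and 1 Hdac7 window held 1 GC box. These matches describe letters in a window and say nothing of binding.

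Levels between genes were compared in the deposited FPKM, which are per gene length. The listed length of a gene is that of all its annotated exons merged, 3379 bases for Hdac10 and 15813 for Hdac4. The order therefore depends on this scale. By reads, Hdac10 (276 to 351 per library) was below Hdac9 (582 to 956) in the first experiment. Hdac5, with 12481 reads over the libraries of that experiment, was above Hdac11 with 6870. Hdac11 (ENSMUSG00000034245, chr6:91156665-91174692) was the highest member in the cortex libraries of the first experiment, with a mean of 26.2 FPKM and a range of 22.2 to 29.8. Hdac5 (ENSMUSG00000008855, chr11:102194432-102230166) followed at a mean of 20.8 FPKM, and its range of 17.7 to 23.3 overlapped that of Hdac11. Below them came Hdac6 (ENSMUSG00000031161, chrX:7930120-7947889) at 10.3 FPKM, Hdac7 (ENSMUSG00000022475, chr15:97792664-97844502) at 8.37 and Hdac10 (ENSMUSG00000062906, chr15:89123307-89128700) at 5.45. Hdac4 (ENSMUSG00000026313, chr1:91928779-92195699) at 4.15 FPKM and Hdac9 (ENSMUSG00000004698, chr12:34047580-34917095) at 3.09 were the lowest. None of the neighbours from Hdac5 downwards overlapped in that experiment.

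In the second experiment the first 4 places were the same, with Hdac11 at 32.9 FPKM and Hdac5 at 25.8. Hdac4 at 5.30, Hdac10 at 5.02 and Hdac9 at 4.04 FPKM followed, and these 3 overlapped from neighbour to neighbour, as did Hdac6 and Hdac7. Hdac11 and Hdac5 overlapped as well, and in NaCl replicate 1 Hdac5 (37.6 FPKM) was above Hdac11 (33.3). Hdac5 and Hdac11 together made up between 56.4% and 64.8% of the summed member FPKM in the 8 libraries. The sum was 70.8 and 73.2 FPKM in the PTS + RS libraries and 85.7 and 83.5 in the RS libraries. It was 92.2 and 79.9 FPKM with the inhibitor and 111 and 84.8 with NaCl, where NaCl replicate 1 was the highest library. The experiments were tabulated separately, so levels were not tested between them.

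**Figure D1:**
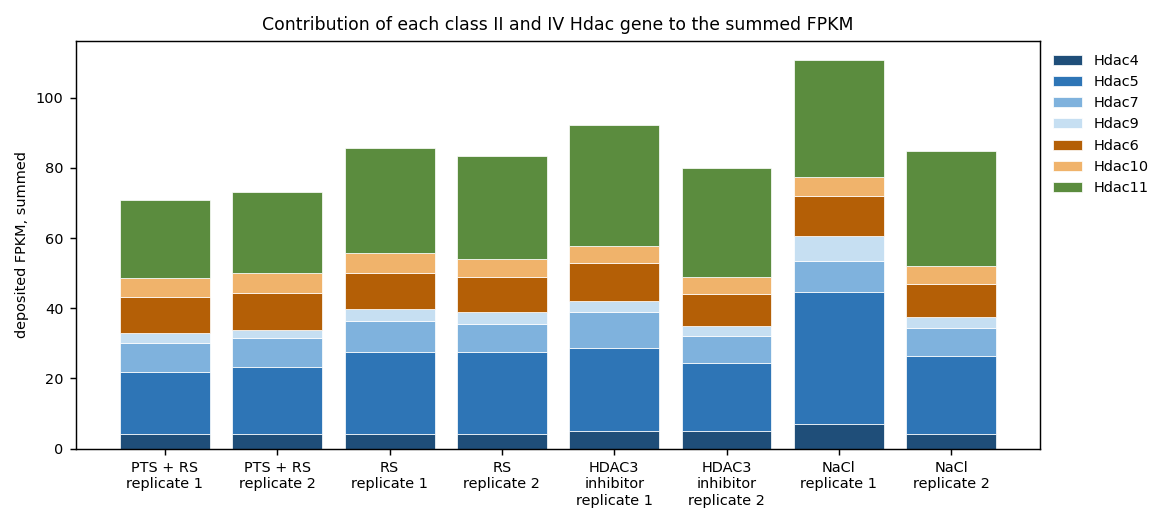
Stacked bars of the deposited FPKM (vertical axis, from 0) of the 7 genes in each of the 8 libraries (horizontal axis), 1 colour per gene. Hdac5 and Hdac11 fill between 56.4% and 64.8% of every bar, and the PTS + RS bars, at 70.8 and 73.2 FPKM, are lower than the RS bars at 85.7 and 83.5.

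The first comparison asked how the cortex of stressed mice with a stroke differs from that of mice stressed alone. Hdac11 fell in the PTS + RS group, and none of the other 6 genes passed the test. Levels within a gene are given from here on as CPM, counts scaled to the library total by the TMM method. The test was edgeR's quasi-likelihood test, and p-values were adjusted by the Benjamini-Hochberg method over 17581 genes. A gene was called at an adjusted p under 0.05.

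Hdac11, the class IV enzyme, was at 86.3 and 89.6 CPM in the PTS + RS libraries and at 115 and 114 in the RS libraries. Both PTS + RS libraries were lower than both RS libraries. The log2 fold change was -0.38 (standard error 0.073, 95% interval -0.55 to -0.21, adjusted p = 0.040, edgeR). The call was lost without RS replicate 1 (log2 fold change -0.37, adjusted p = 0.30) and without RS replicate 2 (-0.40, adjusted p = 0.29), where the lone RS library is assumed to vary like the others. In bulk tissue, fewer cells of a type and less RNA per cell cannot be told apart.

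Hdac5, a class IIa repressor of MEF2 factors, was at 157 and 169 CPM in PTS + RS and at 205 and 205 in RS. Its groups did not overlap either. The log2 fold change was -0.33 (standard error 0.075, 95% interval -0.51 to -0.15), and the adjusted p of 0.066 missed the threshold. Hdac9, whose MEF2-interacting forms act in the same way, was at 45.4 and 34.8 CPM against 52.8 and 49.2. The difference was -0.35 on the log2 scale (standard error 0.135), with an adjusted p of 0.24 from edgeR. PTS + RS replicate 2 was the lowest library for Hdac9. With either PTS + RS library left out, Hdac5 was called, at -0.28 without replicate 1 (adjusted p = 0.014, edgeR) and at -0.39 without replicate 2 (adjusted p = 0.0021, edgeR). Hdac9 was called without replicate 1 (-0.55, adjusted p = 0.0032, edgeR) and not without replicate 2 (-0.17, adjusted p = 0.29, edgeR). These fits called 9.70% and 14.6% of all genes, with the lone library assumed to vary like the others.

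The remaining class IIa genes had fold changes near 0. Hdac4 was at 65.5 and 64.5 CPM in PTS + RS and at 66.2 and 67.7 in RS (log2 fold change -0.04, 95% interval -0.22 to 0.14). Hdac7, best known from vessels and lymphocytes, was at 55.6 and 56.1 CPM against 60.5 and 55.3 (-0.05, interval -0.26 to 0.15). Between the groups, Hdac4 libraries were separated by a narrow gap and Hdac7 libraries overlapped. Hdac7 shares 29 bases of exon with Slc48a1 on the opposite strand, which held 8845 reads in these 4 libraries against 3863 for Hdac7. Whether the counting used strand is not given in the sources used here.

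The class IIb genes overlapped between the groups. Hdac6 was at 59.6 and 62.2 CPM in PTS + RS and at 60.0 and 58.1 in RS (log2 fold change 0.04, interval -0.15 to 0.23). Hdac10 was at 18.4 and 18.9 CPM against 19.4 and 17.4 (0.02, interval -0.28 to 0.32).

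Over the 7 members, 1 was called, Hdac11, in a table where 0.586% of genes were called lower and 2.96% higher. Libraries of the groups did not overlap for 4 members, all lower, or 57.1%, against 24.5% of all genes lower and 25.7% higher. An unadjusted p under 0.05 was found for 3 members, or 42.9%, against 17.9% of all genes. The median log2 fold change was -0.05 over the members and -0.0015 over all tested genes. The class I enzymes Hdac1, Hdac2, Hdac3 and Hdac8 all had positive log2 fold changes, between 0.04 for Hdac3 and 0.17 for Hdac2, and none was called.

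**Figure D2:**
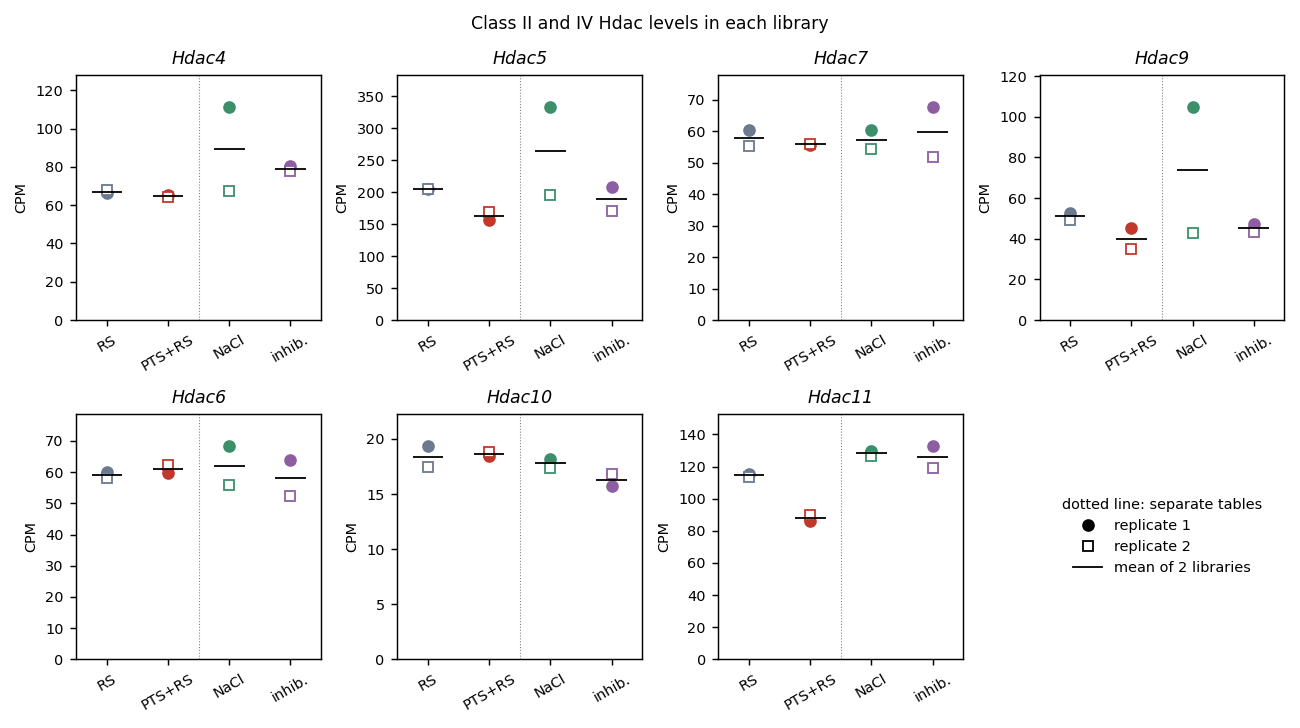
CPM (vertical axes, from 0, a separate scale per gene) of each gene in each library, filled circles for replicate 1, open squares for replicate 2 and a line at the mean of the 2 libraries. The dotted line separates the experiments. Hdac11 lies at 86.3 and 89.6 in PTS + RS against 115 and 114 in RS, and NaCl replicate 1 stands above the other libraries of its table for Hdac4, Hdac5, Hdac6, Hdac9 and Hdac10.

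Cell markers moved between the same groups. All 12 microglia markers rose in PTS + RS, with summed levels of 1469 and 1253 CPM against 333 and 301. Of 10 astrocyte markers, 5 rose, and their sums were 7927 and 6731 CPM against 4558 and 4592. Of 12 oligodendrocyte markers, 11 had positive log2 fold changes and Ugt8a was called higher. Their sums were 7212 and 8063 CPM against 6553 and 5940. None of the 12 neuron markers was called (median log2 fold change -0.07), and the sums were 10022 and 11734 CPM against 11432 and 11337. Choroid plexus markers summed to 51.3 CPM in PTS + RS replicate 2 and to between 1681 and 3936 in the other 3 libraries. None of the 10 endothelial markers was called, while all 10 had positive log2 fold changes (median 0.24). Their sums were 353 and 321 CPM against 295 and 281. Of 10 striatal markers, 8 had negative log2 fold changes and Ppp1r1b fell (-0.78, adjusted p = 0.047, edgeR), at sums of 177 and 176 CPM against 205 and 222. The part of these marker differences in the Hdac11 difference was not tested.

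Genes that work with the members were called in some lists and not in others. None of the 14 class IIa kinases, the 7 14-3-3 genes, the 3 tested MEF2 genes or the 6 genes of the NCoR and SMRT complex was called. All 9 MEF2 target and activity genes had negative log2 fold changes (median -0.33), and 2 of them were called lower, against 0.586% of all genes. Some were near 0 for their standard errors: Klf2 at -0.003 (0.158), Klf4 at -0.065 (0.245) and Fos at -0.155 (0.155). Egr1, an immediate early transcription factor, was at a mean of 79.9 CPM against 137 (log2 fold change -0.78, standard error 0.103, adjusted p = 0.0094, edgeR). Nr4a1, an immediate early nuclear receptor and MEF2 target, was at 48.4 CPM against 81.5 (-0.75, standard error 0.144, adjusted p = 0.040, edgeR).

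The genes of tubulin acetylation and of polyamines, the fields of Hdac6 and Hdac10, gave 3 calls. Of 11 genes of the first kind, Sirt2, a tubulin deacetylase abundant in oligodendrocytes, rose from 144 to 201 CPM (log2 fold change 0.48, adjusted p = 0.014, edgeR), and it was also the single call among 7 sirtuins. Of 11 polyamine genes, Sat1, which acetylates spermidine and spermine, rose from 31.9 to 49.5 CPM (0.64, adjusted p = 0.047, edgeR). Oaz1, which marks ornithine decarboxylase for breakdown, fell from 228 to 159 CPM (-0.52, adjusted p = 0.013, edgeR). Over all genes, 2.96% were called higher and 0.586% lower.

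The 3 protein-coding genes whose centred log2 CPM was most like that of Hdac11 over the 4 libraries were Gga2, Sdhd and Srebf2. Their root mean square differences from it were 0.0049, 0.0091 and 0.012, against a spread of Hdac11 about its own mean of 0.19. Srebf2 was called lower as well (adjusted p = 0.045, edgeR), while Gga2 (0.088) and Sdhd (0.053) were not. With 4 libraries and so many genes, close matches are sure to be found, here and in the later comparisons.

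The second comparison asked how the HDAC3 inhibitor changed expression in mice with stroke and restraint stress. No member was called, and no gene of the table was (0% higher and 0% lower of 17565 tested, by edgeR, DESeq2 and limma-voom alike). An unadjusted p under 0.05 was found for none of the 7 members against 1.17% of all genes. Hdac3, which encodes the inhibitor's labelled target, was at 89.9 and 74.8 CPM with the inhibitor and at 79.7 and 78.0 with NaCl. An inhibitor acts on the protein, so that this level does not check the labels.

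Region markers set libraries of this table apart, and NaCl replicate 1 enters the group means of every gene. In NaCl replicate 1, labelled cortex, olfactory bulb markers summed to 1657 CPM against 22.8 to 41.8 in the other 3, and S100a5 had 1131 reads there and 0 in each of the others. The markers of replicate 2 also did not follow its amygdala label alone. Striatal markers summed to 1370 and 1508 CPM in replicate 2 and to 213 and 259 in replicate 1. Cortex markers were higher in replicate 2 (1469 and 1255 CPM against 792 and 784). Amygdala markers were not higher in sum (224 and 230 against 289 and 263), and they were mixed gene by gene. Of 9 tested, 5 had positive and 4 negative log2 fold changes (median 0.07). Etv1, at a mean of 86.0 CPM in replicate 2 against 147 in replicate 1, weighed most in the sum. The libraries are therefore called by their replicate number. Choroid plexus markers summed to 1565 CPM in inhibitor replicate 1 and to between 16.7 and 47.7 elsewhere.

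In NaCl replicate 1 the class IIa genes Hdac9, Hdac5 and Hdac4 were high. Hdac9 was at 105 CPM there and at 42.7 to 47.5 in the other 3 libraries, 2.36-fold their mean, and 2.91% of all genes had a larger ratio. Hdac5 was at 334 CPM against 171 to 209 (1.74-fold, with 7.01% of genes larger), and Hdac4 at 112 against 67.5 to 80.4 (1.48-fold, with 11.7% larger). Hdac6 at 1.19-fold and Hdac10 at 1.09-fold the mean of the other 3 were also above each of them, while Hdac7 at 1.04-fold and Hdac11 at 1.03-fold were within their range. Thus 5 of the 7 members, or 71.4%, were highest in this library, against 35.0% of all genes. Of the class I genes, Hdac1 (1.36-fold) and Hdac2 (1.10-fold) were also highest there, while Hdac3 (0.985-fold) and Hdac8 (0.935-fold) were not. With 1 library these are values without a test.

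**Figure D3:**
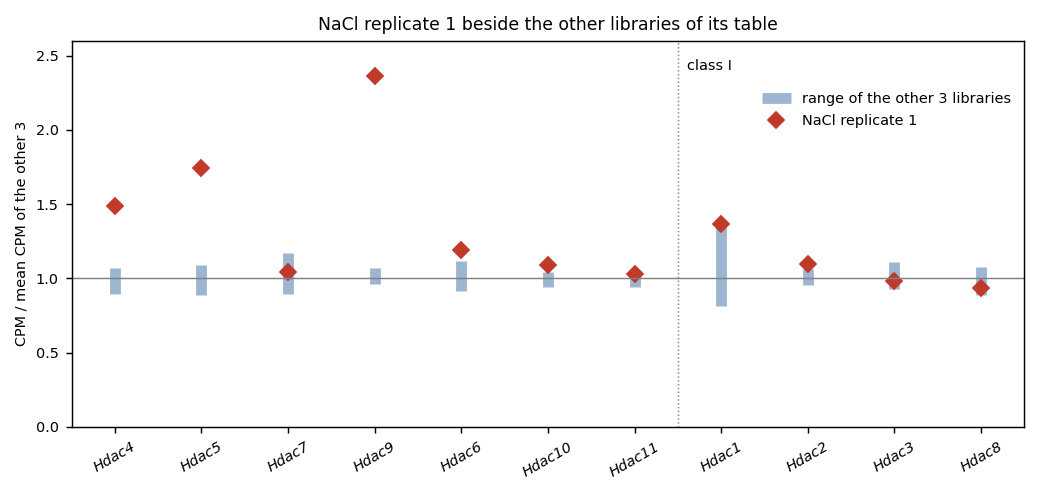
CPM of NaCl replicate 1 divided by the mean of the other 3 libraries of its table (vertical axis, from 0, diamonds) for the 7 genes and the 4 class I genes. Blue bars give the range of the other 3 libraries. Hdac9 at 2.36, Hdac5 at 1.74, Hdac4 at 1.48, Hdac6 at 1.19 and Hdac10 at 1.09 lie above the bars of the other libraries. Of the class I genes, Hdac1 at 1.36 and Hdac2 at 1.10 also lie above their bars, and Hdac3 and Hdac8 do not.

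With the inhibitor, Hdac9 was at 47.5 and 43.3 CPM, and with NaCl at 105 and 42.7. Its log2 fold change was -0.70 with a wide 95% interval of -1.85 to 0.45 (adjusted p = 0.9997, edgeR), and it was 0.08 without NaCl replicate 1. Hdac5 was at 209 and 171 CPM against 334 and 196 (-0.48, interval -1.29 to 0.33), and at -0.05 without that library. Hdac4 was at 80.4 and 77.7 CPM against 112 and 67.5 (-0.18, interval -0.90 to 0.54), and at 0.22 without it. The sign of Hdac9 and Hdac4 therefore turned with 1 library.

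Hdac11 was at 133 and 119 CPM with the inhibitor and at 130 and 127 with NaCl, a log2 fold change of -0.03 (interval -0.46 to 0.40). Hdac6 was at 63.9 and 52.3 CPM against 68.4 and 55.7 (-0.10, interval -0.62 to 0.43). Hdac7 was at 67.9 and 51.8 CPM against 60.4 and 54.3 (0.06, interval -0.47 to 0.59). Hdac10 was at 15.7 and 16.8 CPM against 18.1 and 17.4 (-0.13, interval -0.62 to 0.37), and was the single member whose groups did not overlap. That is 14.3% of the members, against 13.8% of all genes lower and 12.8% higher. The narrowest of the intervals, that of Hdac11, was still wider than its interval in the first comparison.

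The ratio of inhibitor to NaCl was also read within each replicate number. For Hdac9 it was -1.14 in replicate 1 and 0.02 in replicate 2 on the log2 scale. For Hdac5 it was -0.68 and -0.20, and for Hdac4 -0.47 and 0.20. The other members lay between -0.20 and 0.17 in both. Over all genes, 51.4% had opposite signs in the 2 replicate numbers. None of the genes of the pathway lists was called in this comparison. The 3 genes most like Hdac9 over the 4 libraries were Abca8a, Rhobtb3 and Col9a2, with root mean square differences of 0.022, 0.043 and 0.044 against a spread of 0.54 for Hdac9 itself.

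The third comparison set replicate 2 against replicate 1 in the second experiment, which the labels give as amygdala and cortex. No member was called and no gene was by edgeR or limma-voom (0% higher and 0% lower), while DESeq2 called 416 genes, none of them a member. An unadjusted p under 0.05 was found for none of the 7 members, against 11.2% of all genes. Libraries did not overlap for 6 of the 7 members, or 85.7%, all lower in replicate 2, against 22.4% of all genes lower and 21.6% higher. Hdac10 was the exception.

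Hdac9 was at 43.3 and 42.7 CPM in replicate 2 and at 47.5 and 105 in replicate 1, a log2 fold change of -0.83 (95% interval -1.85 to 0.19, adjusted p = 0.52, edgeR). Hdac5 gave -0.57 (interval -1.27 to 0.14) and Hdac4 -0.40 (interval -0.95 to 0.14). Hdac6 was at 52.3 and 55.7 CPM against 63.9 and 68.4 (-0.29, interval -0.64 to 0.06). Hdac7 was at 51.8 and 54.3 CPM against 67.9 and 60.4 (-0.27, interval -0.64 to 0.09). Hdac11 gave -0.10 and Hdac10 0.01. Without inhibitor replicate 1, so that NaCl replicate 1 stands alone for its side, Hdac4 (-0.61), Hdac5 (-0.86) and Hdac9 (-1.28) were called, in a fit that called 5383 of 18744 genes, or 28.7%. That lone library carries the olfactory bulb markers, and it is assumed to vary like the 2 libraries of replicate 2. Without NaCl replicate 1, 2565 of 18613 genes were called, or 13.8%, and none of them was a member, with Hdac4 at -0.13, Hdac5 at -0.17 and Hdac9 at -0.13. Aldh4a1, Kank2 and Unc45a were most like Hdac6 over the 4 libraries, with root mean square differences of 0.0085, 0.013 and 0.014 against its own spread of 0.15. Among class I genes, Hdac1 had the largest log2 fold change, -0.73 (adjusted p = 0.29, edgeR).

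**Figure D4:**
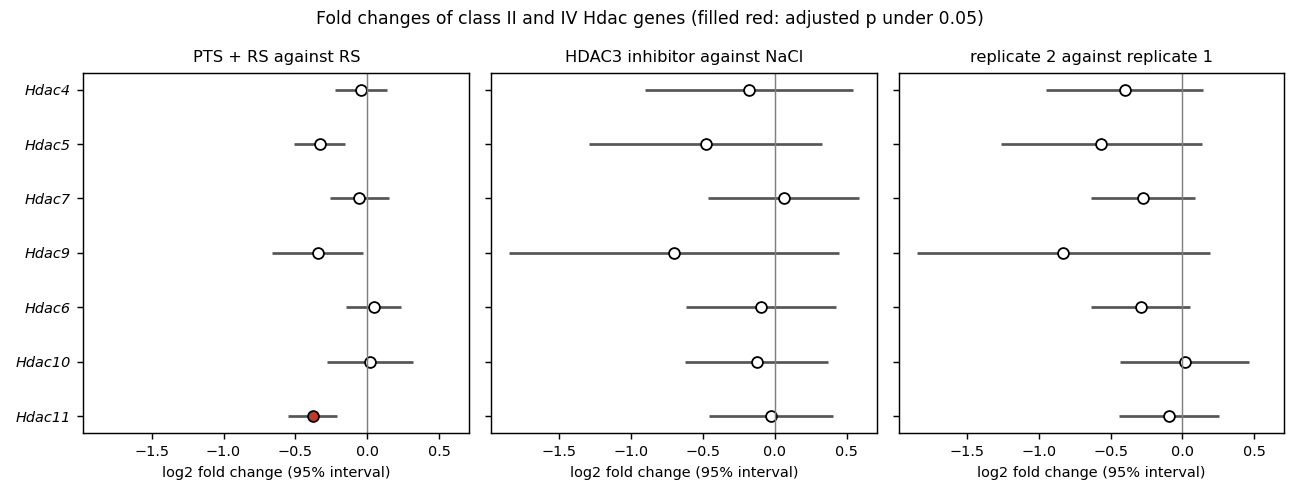
Log2 fold changes (horizontal axis) with 95% intervals of the 7 genes in the 3 comparisons, filled red where the adjusted p was under 0.05. Only Hdac11 in PTS + RS against RS, at -0.38, is filled.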

How the data were processed

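Members, gene lists and tests were chosen with earlier results of these data known. The authors aligned reads to GRCm38 with STAR 2.4.0 and counted reads per gene with HTSeq 0.6.1, per the submitters' processing notes and methods. The authors deposited raw counts, and FPKM calculated from them, which was used for levels between genes. Columns of 8 further per-library values, a normalized signal, were not used, nor were the deposited group means, fold changes and p-values. The library kit differs between the label and the methods, and strand use in counting is not given in the sources used here. Counts on genes summed to between 15902013 and 21712033 per library.

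Genes were filtered by filterByExpr, normalized by TMM and compared by edgeR 4.0.16 (R 4.3.3) quasi-likelihood, within each table, with Benjamini-Hochberg adjustment over all genes tested. DESeq2 1.42.0, limma-voom (limma 3.58.1), relative log scaling, no filter, a replicate block and leaving out each library were alternatives, and scripts were tested on simulated data. All 7 members, the class I genes, at most 4 called genes per list and the 3 most like genes were named. Log2 CPM used a prior count of 2. Coordinates of members equal those of GENCODE M21, and promoters are from RefSeq (GRCm38.p6). The biological coefficient of variation was 11.4% in the first table and 32.1% in the second. The second value is from the fit by treatment, so it includes the difference between the tissue labels.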

Additional observations from a re-analysis of the deposited data

Results flagged for a closer look

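The log2 ratio of HDAC3 inhibitor to NaCl went opposite ways in the 2 replicate numbers for 4 of the 7 genes, and the difference was not tested, since each number holds 1 library per treatment. The ratio in replicate 1 minus that in replicate 2 was -1.16 for Hdac9, -0.68 for Hdac4, 0.23 for Hdac7 and 0.13 for Hdac11. Opposite signs were found for 51.4% of all genes. NaCl replicate 1, which carried olfactory bulb markers, enters the replicate 1 ratio and not that of replicate 2, and its part was not tested.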

How the results depend on the processing

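Of 189 fold changes of members under the alternatives, 10 changed sign, and none of those was called. In PTS + RS against RS, 1 member was called, against 3 without a filter on low counts (Hdac5, Hdac9 and Hdac11) and between 0 and 3 when a library was left out. The 3 were Hdac5, Hdac9 and Hdac11 without PTS + RS replicate 1, and Hdac5 and Hdac11 were called without PTS + RS replicate 2. Hdac11 kept its direction in all 9 alternatives (log2 fold change -0.41 to -0.35, adjusted p 0.0020 to 0.30) and its call in 7. When a library was left out, Hdac9 ranged from -0.55 to -0.17, Hdac5 from -0.39 to -0.28, Hdac7 from -0.12 to 0.0067 and Hdac10 from -0.060 to 0.093 in that comparison. In HDAC3 inhibitor against NaCl no member was called under any alternative. Leaving out a library there gave ranges of -0.49 to 0.22 for Hdac4, -0.24 to 0.052 for Hdac6, -0.14 to 0.25 for Hdac7, -1.20 to 0.082 for Hdac9 and -0.11 to 0.054 for Hdac11. Without NaCl replicate 1 the signs of Hdac4, Hdac6 and Hdac9 changed. In replicate 2 against replicate 1, leaving out a library gave between 0 and 3 calls, and Hdac10 ranged from -0.080 to 0.13. The causes were not tested. Over all genes, 624 were called in the first comparison, against 1835 without a filter and between 371 and 2691 when a library was left out. In the second, 0 were called, against 93 without NaCl replicate 2. In the third, 0 were called, against 416 by DESeq2, 13 without a filter, and 2565 and 5383 without replicate 1 of NaCl and of the inhibitor. With the replicate number as a block, Hdac11 was at -0.38 (adjusted p = 0.030, edgeR), and no other member was called in the 2 treatment comparisons. Deviations of same-numbered libraries correlated at 0.035 and 0.30 over genes, with 2 pairs in each, and the number is also the tissue label in the second experiment. The lowest member counts, 276 and 248 reads, give counting errors of 6.02% and 6.35%, against biological coefficients of variation of 11.4% and 32.1% in the 2 tables.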
